A study of Mus musculus with 6 samples.

Results

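Genes of mitosis and chromosome segregation were examined in mouse intestinal organoids by 3′ mRNA sequencing. The set holds 45 named genes, from cyclin B and its kinase to condensin, and was chosen by name with earlier results of these data known. All 45 symbols were matched to a single row among the 52249 genes of the deposited count table. Organoids are epithelial cultures, and all 6 libraries were labelled as carrying a knockout of Apc, a tumour suppressor that restrains WNT signalling. The Apc-knockout group, called control here, had 3 libraries, and the Apc-knockout, IGF2BP3 overexpression group, called OE-labelled here, also had 3. IGF2BP3 is an RNA-binding protein that associates with messenger RNAs. How Apc was deleted, how IGF2BP3 was expressed, and whether libraries came from separate cultures or animals are not given in the sources used here, so p-values measure only the spread between these libraries.

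Mitosis is driven by cyclin-dependent kinase 1 bound to cyclins A and B, and is ended when the anaphase-promoting complex (APC/C) marks cyclin B and securin for destruction. Until every chromosome is attached to the spindle through its kinetochore, the spindle checkpoint keeps the APC/C inactive. Condensin compacts the chromosomes, kinesins and spindle factors build the spindle, and the chromosomal passenger complex and central spindle proteins complete division. In the intestine these genes are active in the dividing cells of the crypt. Many of them are transcribed late in the cell cycle from promoters that hold a CHR element (cell cycle genes homology region), bound by the MuvB complex, and CCAAT boxes, bound by NF-Y.

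The letters of these promoter elements occurred in genes that were higher and in genes that were lower in OE-labelled libraries. The genes were chosen by name and not by promoter sequence. Since such promoters are known for many genes of this kind, the frequency of the letters describes the set and is not a result of these libraries. RefSeq promoters (GRCm38.p6, 250 bases before to 50 after each start) were found for 38 of the 45 genes. The CHR letters TTTGAA were searched on both strands and occurred in 30 of the 38 (78.9%), against 20.2% of the 27025 genes with a promoter in the same table and 13.8% of those that were tested here. The CCAAT letters, also searched on both strands, occurred in 28 of the 38 (73.7%), against 41.1% of all genes in the table. Both motifs occurred in 25 of the 38 (65.8%), against 7.97%, where a gene with several listed starts was counted if 1 of them held the letters. A match of each kind can share at most 1 letter with a match of the other, and a match describes letters only, not binding.

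The stretches below run from 130 bases before to 30 bases after the annotated start, and are shown for 3 genes called higher and 3 called lower in OE-labelled libraries, so that the letters can be set beside the direction of change. Capitals mark TTTGAA or CCAAT on either strand. Cdk1 lies at chr10:69352883-69353042 on the minus strand, Bub3 at chr7:131560240-131560399 on the plus strand (the upstream of 2 listed starts) and Birc5 at chr11:117849107-117849266 on the plus strand. Top2a lies at chr11:99024160-99024319 on the minus strand, Kif11 at chr19:37376252-37376411 on the plus strand and Kif20b at chr19:34922228-34922387 on the plus strand.
Cdk1: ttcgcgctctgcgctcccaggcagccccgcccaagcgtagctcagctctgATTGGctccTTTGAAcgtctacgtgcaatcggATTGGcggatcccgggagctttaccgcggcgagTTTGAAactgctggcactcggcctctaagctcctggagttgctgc
Bub3: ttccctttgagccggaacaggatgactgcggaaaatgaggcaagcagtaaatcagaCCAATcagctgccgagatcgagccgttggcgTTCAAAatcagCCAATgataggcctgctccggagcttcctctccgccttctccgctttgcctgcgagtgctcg
Birc5: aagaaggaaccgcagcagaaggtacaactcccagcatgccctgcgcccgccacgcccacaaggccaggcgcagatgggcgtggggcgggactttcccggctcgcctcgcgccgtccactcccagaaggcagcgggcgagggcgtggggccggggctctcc
Top2a: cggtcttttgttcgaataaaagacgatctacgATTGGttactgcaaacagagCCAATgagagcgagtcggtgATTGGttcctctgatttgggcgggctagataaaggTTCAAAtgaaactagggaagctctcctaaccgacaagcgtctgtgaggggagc
Kif11: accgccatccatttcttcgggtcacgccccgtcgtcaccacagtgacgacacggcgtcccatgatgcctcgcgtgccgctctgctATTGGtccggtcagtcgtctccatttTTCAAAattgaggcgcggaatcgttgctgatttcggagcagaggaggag
Kif20b: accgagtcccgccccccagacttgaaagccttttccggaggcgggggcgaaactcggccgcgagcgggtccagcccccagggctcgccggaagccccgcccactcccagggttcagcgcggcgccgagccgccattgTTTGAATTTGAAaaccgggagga
Among the genes called higher, the full promoter held TTTGAA in 3 of 4, and Birc5 was the gene without it. Among the genes called lower it was present in 4 of 4. It was also present in 15 of the 20 genes not called and in 8 of the 10 not tested, so its presence did not mark the called genes. CCAAT occurred in 3 of 4 genes called higher, 2 of 4 called lower, 17 of 20 not called and 6 of 10 not tested. Kif20b held 2 copies of TTTGAA in direct succession just after its start, and no CCAAT letters.

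**Figure D1:**
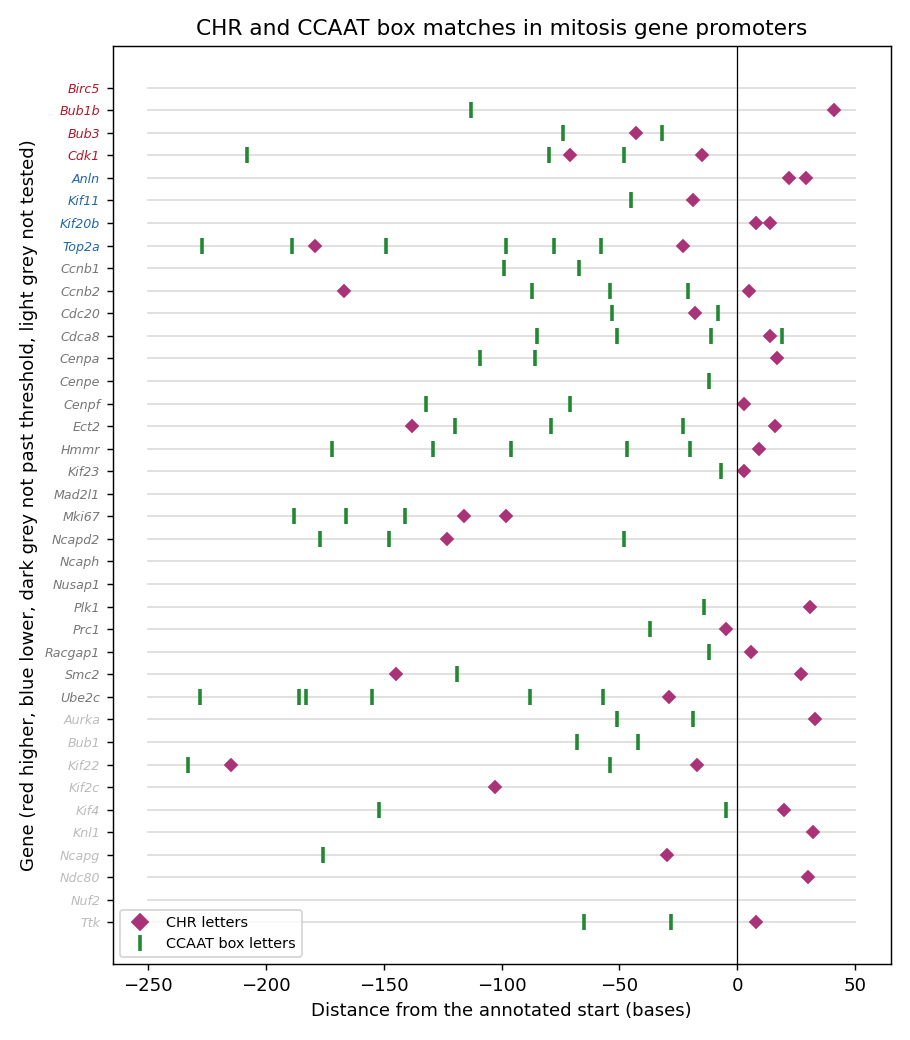
Positions of CHR (diamonds) and CCAAT box (bars) letters in the promoters of 38 mitosis genes, as distance from the annotated start in bases, with 1 promoter per gene (the lowest coordinate where RefSeq has more). The 4 genes called higher (red) and the 4 called lower (blue) stand at the top, and CHR letters occur in 3 and 4 of them. They also occur in 15 of the 20 genes not called and 8 of the 10 not tested.

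Libraries held from 2180116 to 2519917 counts, and 3 counts correspond to 1.18 to 1.41 CPM (a count scaled to library size, here with TMM factors). Igf2bp3 was counted at 1, 0 and 0 in control and 1, 0 and 0 in OE-labelled libraries, so the counts gave no check of the overexpression label, and each direction below is that of the labelled libraries. Apc, labelled as knocked out in both groups, had 182, 174 and 164 counts in control and 158, 151 and 148 in OE-labelled libraries. With no library labelled as having intact Apc among the 6, these counts gave no check of the knockout label, and Apc fell by 0.37 between the groups on the log2 scale (SE 0.12, adjusted p = 0.0323 in edgeR). The library names place the groups in different series, so a batch of libraries and the group cannot be told apart. Of 9 epithelial markers, 9 were tested, 4 were higher (44.4%) and 1 was lower (11.1%), against 16.5% and 12.7% of all tested genes. Their summed levels were 4364 ± 123.7 CPM in control and 5885 ± 361.3 CPM in the other group (SD, n = 3). Mean CPM rose for Krt18 (1179 to 2229), Krt8 (498 to 829), Krt19 (489 to 772) and Vil1 (68.6 to 108), and fell for Cldn7 (203 to 95.1). Epcam, Cdh1, Cdx2 and Elf3 did not pass. The part of these markers in the results below was not tested. The summed CPM of 9 fibroblast markers ran from 0.461 to 1.88 over control and from 0.405 to 1.18 over OE-labelled libraries, with 6 at 0 in all libraries, and that of 5 endothelial markers was 0.921 to 1.38 and 0.405 to 1.18. The 7 immune markers summed to 14.1 to 19.8 and 18.6 to 23.1 CPM, mostly from Cd68 (29 to 38 and 35 to 50 counts), and Cd3e and Lyz2 were at 0.

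Mitosis genes showed both directions of change. In bulk libraries, fewer dividing cells and less RNA per dividing cell cannot be told apart. Of the 45 genes, 31 passed the count filter and 14 did not, none of the latter exceeding 14 counts in a library. With edgeR's quasi-likelihood test, adjusted over the 10687 genes tested, 4 of the 31 were higher (Bub3, Bub1b, Birc5 and Cdk1) and 4 were lower (Top2a, Kif20b, Kif11 and Anln) in OE-labelled libraries, and 23 did not pass an adjusted p of 0.05. Across all tested genes 29.2% passed, 16.5% higher and 12.7% lower, so that the share among the tested mitosis genes (25.8%, 12.9% in each direction) lay near the background and is not a result about these genes. In 13 of the 31 the groups stood apart with no overlap in CPM, against 45.7% of all tested genes, with 7 higher and 6 lower in OE-labelled libraries. Of the tested genes, 26 of the 31 were above the filter level of 4.41 CPM in every library, while Kif11 and Anln reached it in all 3 libraries of control only and Bub1b and Mad2l1 in those of the OE-labelled group only. The 5 called genes above the level in all 6 libraries were Bub3, Cdk1, Birc5, Top2a and Kif20b.

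The median log2 fold change (OE-labelled minus control) of the 31 tested genes was -0.04, beside 0.04 over all tested genes. The summed level of all 45 genes was 799.6, 824.3 and 784.2 CPM in the control group and 852.8, 786.9 and 805.4 CPM in the OE-labelled group, so the groups overlapped. The number called depended on single libraries and on the test. Without control replicate 1 the fit called 1 gene higher and 1 lower, without control replicate 2 it called 1 and 3, and without control replicate 3 it called 3 and 2. Without OE-labelled replicate 1 it called 2 higher and 7 lower, and without OE-labelled replicate 2 it called 2 and 3. DESeq2 called 1 higher and 4 lower. With an offset for GC content 5 were higher and 2 lower, and with an offset for exonic length 2 were higher and 3 lower. The share of all tested genes that passed, 29.2% in the main fit, changed in the same fits. It was 17.3%, 16.8% and 15.9% without control replicates 1, 2 and 3, and 30.8% and 21.2% without OE-labelled replicates 1 and 2. With DESeq2 it was 19.6%, with the GC offset 23% and with the length offset 23.9%.

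**Figure D2:**
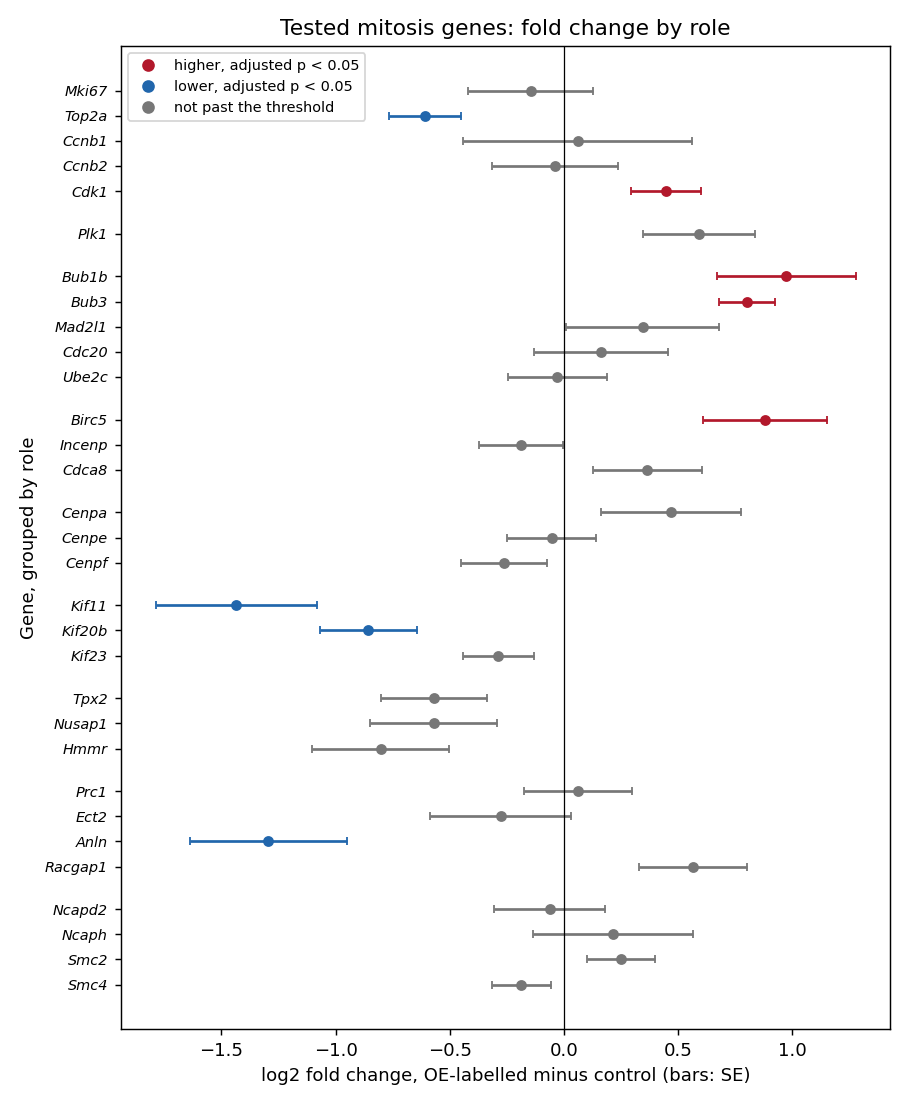
Log2 fold change (OE-labelled minus control, x axis) of the 31 tested mitosis genes, grouped by role on the y axis, with bars for the standard error from the edgeR fit. The 4 red genes were higher and the 4 blue genes lower at an adjusted p below 0.05, and the other 23 lie between -0.80 and 0.59.

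Among the markers of dividing cells and the cyclin-dependent kinase core, Cdk1 was higher, Top2a was lower, and Mki67 and the B cyclins did not pass. Mki67, which coats mitotic chromosomes and is the usual marker of proliferating cells, was at 17.5, 18.8 and 16.1 CPM in the control group and 18.2, 9.04 and 20.3 CPM in the OE-labelled group. The groups overlapped, with OE-labelled replicate 2 the lowest (log2 fold change -0.14 with an SE of 0.27, adjusted p = 0.724 in edgeR). Cdk1, the kinase that starts mitosis (minus strand of chromosome 10, 69335146 to 69352938 in GRCm38), was at 33.2, 37.5 and 30.9 CPM in the control group and 46.6, 50.3 and 41.4 CPM in the OE-labelled group. Every OE-labelled library lay above every control library, a log2 fold change of 0.45 (SE 0.15, adjusted p = 0.0421 in edgeR).

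The Cdk1 call was close to the threshold, and 11 of 19 alternatives lost it. It did not pass with DESeq2 (adjusted p = 0.195) or with DESeq2 size factors in edgeR (0.066). It also did not pass without control replicate 1 (edgeR adjusted p = 0.129), 2 (0.0686) or 3 (0.163), or without OE-labelled replicate 1 (0.0753) or 2 (0.167). Top2a, the topoisomerase that disentangles sister chromatids (minus strand of chromosome 11, 98992943 to 99024189), was at 89, 83 and 72.3 CPM in the control group and 66, 49.6 and 44.4 CPM in the OE-labelled group. The groups did not overlap, and Top2a fell by 0.61 on the log2 scale (SE 0.16, adjusted p = 0.0126 in edgeR). Without control replicate 1 the adjusted p was 0.0678, without control replicate 2 it was 0.0552 and without OE-labelled replicate 2 it was 0.0547. It was 0.106 with the GC offset and 0.0631 with the length offset (edgeR).

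Ccnb1, which encodes the main mitotic cyclin, was at 6.45, 2.35 and 5.53 CPM in the control group and 4.86, 8.26 and 1.69 CPM in the OE-labelled group. The OE-labelled libraries spanned the whole control range (log2 fold change 0.06 with an SE of 0.50, adjusted p = 0.94 in edgeR). Of the 50-base words in the last 600 bases of Ccnb1 transcripts, 32.9% also occur in transcripts of other genes, Ccnb1-ps foremost, so its counts are uncertain. Ccnb2 overlapped between groups at 8.76 to 11.3 CPM and 7.7 to 13.1 CPM (log2 fold change -0.04 with an SE of 0.28, adjusted p = 0.933 in edgeR). Ccna2, the cyclin of S phase and mitotic entry, did not pass the count filter, with 5, 4 and 6 counts in control and 10, 14 and 11 in OE-labelled libraries. With no count filter its log2 fold change was 0.98 (SE 0.48, adjusted p = 0.16 in edgeR over 18991 genes), although the groups did not overlap. Cdc25c, a phosphatase that activates Cdk1, had 0 to 6 counts in all libraries.

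Of the spindle checkpoint genes and APC/C co-factors, 2 of 5 tested were higher and 0 were lower, where 16.5% and 12.7% of all tested genes were. Bub1b, 1 of the 2, reached the filter level in 1 control library and in all 3 OE-labelled libraries. The same held for Mad2l1, which was not called, so both were tested through the group where they were high. Bub3, which docks the checkpoint proteins at the kinetochore (plus strand of chromosome 7, 131560222 to 131571895), was at 76.5, 86.3 and 80.6 CPM in the control group and 160.4, 136.5 and 127.7 CPM in the OE-labelled group. All OE-labelled libraries stood far above the control range. The log2 fold change was 0.80 (SE 0.12, adjusted p = 0.000693 in edgeR), and it passed in all 19 alternatives, with log2 fold changes from 0.65 to 0.90. Bub3 overlaps Fgfr2 on the opposite strand, which had 204 to 218.5 counts in control and 222 to 296 in OE-labelled libraries. Whether the counting used strand is not given in the sources used here, and the part of Fgfr2 reads in the Bub3 count was not tested.

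Bub1b encodes BUBR1, a checkpoint protein that inhibits the APC/C co-activator Cdc20 (plus strand of chromosome 2, 118598211 to 118641591). It was at 4.15, 4.22 and 6.45 CPM in the control group and 8.1, 11.4 and 9.72 CPM in the OE-labelled group. The groups did not overlap, a log2 fold change of 0.97 (SE 0.30, adjusted p = 0.0301 in edgeR) on 9 to 14 and 20 to 29 counts. The DESeq2 adjusted p was 0.153. Without control replicate 1 the edgeR adjusted p was 0.116, without control replicate 2 it was 0.114 and without OE-labelled replicate 2 it was 0.116.

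The other checkpoint and APC/C genes overlapped between groups or did not pass the count filter. Mad2l1, whose product binds Cdc20 in the checkpoint complex, was at 3.69 to 6.57 CPM in the control group and 5.27 to 6.76 CPM in the OE-labelled group (log2 fold change 0.34 with an SE of 0.33, adjusted p = 0.466 in edgeR). Cdc20 itself was at 7.37 to 9.85 and 6.34 to 12.2 CPM (log2 fold change 0.16 with an SE of 0.29, adjusted p = 0.711 in edgeR). Cdc20 overlaps Elovl1, counted at 105 to 116 in control and 198 to 257 in OE-labelled libraries, and whether those reads entered its count was not tested. Its estimate changed sign with the GC and length offsets, and 12.9% of its 3′ words also occur in transcripts of other genes. Ube2c, the ubiquitin-conjugating enzyme of the APC/C, was at 13.8 to 18 and 13.4 to 17.8 CPM (log2 fold change -0.03 with an SE of 0.22, adjusted p = 0.936 in edgeR). The kinases Ttk (9, 12 and 8 counts against 8, 7 and 5) and Bub1 (2 to 4 against 2 to 5) were not tested. The summed level of the 7 genes was 121.5 ± 7.84 CPM in the control group and 186.9 ± 16.3 CPM in the group labelled OE (n = 3 each, ± SD). Without Bub3 the other 6 summed to 39.2, 44.1 and 37.8 CPM and to 43.4, 49.1 and 43.5 CPM, which overlap.

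**Figure D3:**
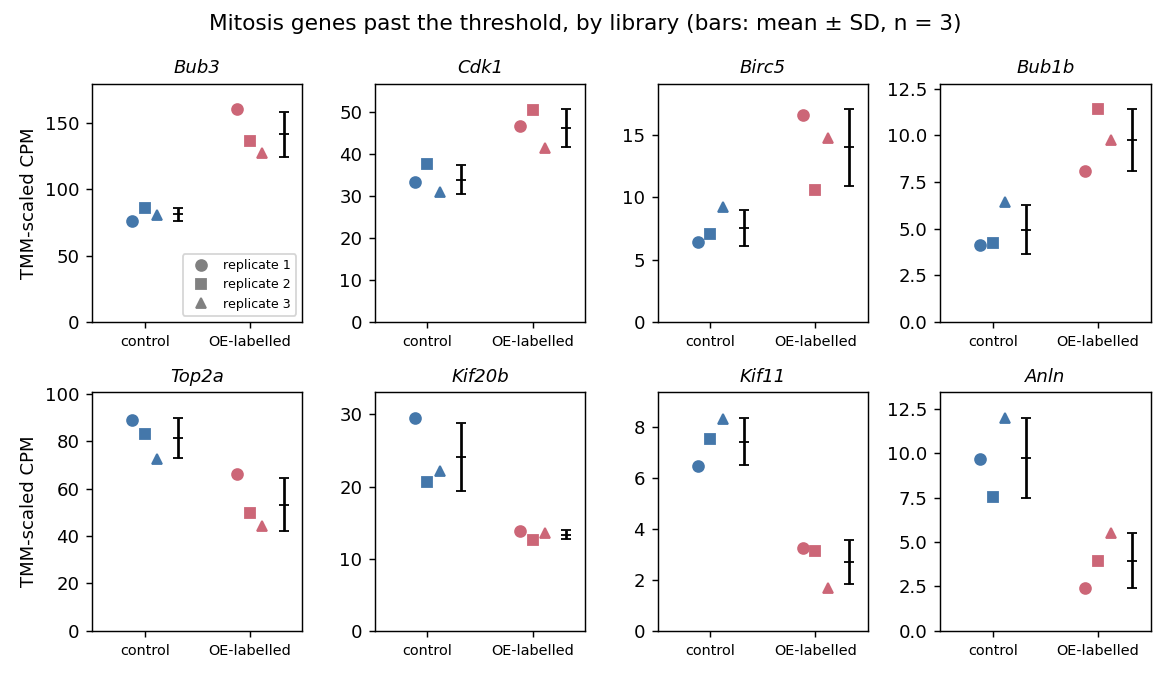
TMM-scaled CPM (y axis, from 0) of the 8 mitosis genes past the threshold in each control (blue) and OE-labelled (red) library, with mean ± SD (black, n = 3) and marker shape for the replicate number. The upper row holds the genes that were higher and the lower row those that were lower. In each of the 8 genes the groups did not overlap, as in 45.7% of all tested genes. The 8 were picked by a test on these same counts, so the separation is no further support. Bub1b, Kif11 and Anln were tested through the group where they were high.

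Polo and Aurora kinases gave no call. Plk1, which acts at centrosomes, kinetochores and the midbody, was at 12.4, 9.85 and 10.6 CPM in the control group and 20.7, 13 and 16.1 CPM in the OE-labelled group. The groups did not overlap, but the log2 fold change of 0.59 (SE 0.24) did not pass (edgeR adjusted p = 0.0873), and it passed in none of 19 alternatives. Aurka, the centrosomal Aurora kinase, was not tested and had 7 to 9 counts in control and 4 to 11 in OE-labelled libraries.

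In the chromosomal passenger complex, which corrects faulty attachments and directs cytokinesis, Birc5 was the single called gene. Birc5 (survivin; plus strand of chromosome 11, 117849251 to 117855743) was at 6.45, 7.04 and 9.21 CPM in the control group and 16.6, 10.6 and 14.8 CPM in the OE-labelled group. The groups did not overlap, a log2 fold change of 0.88 (SE 0.27, adjusted p = 0.0281 in edgeR). The DESeq2 adjusted p was 0.12, and with the length offset the edgeR adjusted p was 0.0579. Without control replicate 1 or 2 the edgeR adjusted p was 0.11 and 0.0988, and without OE-labelled replicate 1 or 3 it was 0.0844 and 0.0503.

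The partners of Birc5 in that complex did not pass. Incenp, the scaffold, was at 27.6, 38 and 27.6 CPM in the control group and 30, 23.6 and 28.3 CPM in the OE-labelled group (log2 fold change -0.19 with an SE of 0.18, adjusted p = 0.476 in edgeR). Cdca8 (borealin) was at 12.9, 17.8 and 16.1 CPM and at 20.7, 24.8 and 14.8 CPM (log2 fold change 0.37 with an SE of 0.24, adjusted p = 0.265 in edgeR). Aurkb, the kinase of the complex, had 2, 8 and 3 counts in control and 2, 3 and 4 in OE-labelled libraries, and did not pass the filter.

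Centromere and kinetochore genes showed no call among the 3 tested, and their summed level was 56.7, 57.7 and 58 CPM in the control group and 55.5, 51.1 and 63.8 CPM in the OE-labelled group. Cenpa, the histone H3 variant that marks centromeres, was at 11.1, 6.57 and 10.6 CPM in the control group and 10.5, 10.2 and 18.6 CPM in the OE-labelled group, with replicate 3 of the latter the highest (log2 fold change 0.47 with an SE of 0.31, adjusted p = 0.271 in edgeR). Cenpe, a kinesin of the outer kinetochore, was at 16.1 to 20.3 and 17.3 to 19 CPM (log2 fold change -0.05 with an SE of 0.20, adjusted p = 0.863 in edgeR). Cenpf, a large protein of the kinetochore corona, was at 19.8 to 23.9 and 16.9 to 19.9 CPM (log2 fold change -0.26 with an SE of 0.19, adjusted p = 0.318 in edgeR). Nuf2, Ndc80 and Knl1, which make the microtubule-binding core of the kinetochore, were not tested. Their counts ran from 1 to 3, 2 to 8 and 6 to 8 in control and from 1 to 4, 4 to 8 and 1 to 12 in OE-labelled libraries.

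Among the kinesin motors, 2 of 3 tested were lower and 0 were higher, where 12.7% and 16.5% of all tested genes were. Kif11, 1 of the 2, reached the filter level in control libraries only. Kif11 (Eg5; plus strand of chromosome 19, 37376403 to 37421859), the motor that slides spindle poles apart, had 14, 16 and 18 counts in control and 8, 8 and 4 in OE-labelled libraries. These were 6.45, 7.51 and 8.29 CPM against 3.24, 3.15 and 1.69 CPM, and the groups did not overlap. Kif11 fell by 1.44 on the log2 scale (SE 0.35, adjusted p = 0.00956 in edgeR), and without control replicate 3 the adjusted p was 0.0533.

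Kif20b, a motor of the late spindle and midbody (plus strand of chromosome 19, 34922361 to 34975745), was at 29.5, 20.6 and 22.1 CPM in the control group and 13.8, 12.6 and 13.5 CPM in the OE-labelled group. The OE-labelled libraries lay close together and below every control library. Kif20b fell by 0.86 on the log2 scale (SE 0.21, adjusted p = 0.00963 in edgeR). Without control replicate 1, the highest, the adjusted p was 0.0602, and with the GC offset it was 0.062 (0.0569 with the replicate block and GC offset).

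Kif23 (MKLP1), a motor of the central spindle, was at 53.5, 47.4 and 42.4 CPM in the control group and 35.7, 36.6 and 45.2 CPM in the OE-labelled group (log2 fold change -0.29 with an SE of 0.16, adjusted p = 0.183 in edgeR). The motors Kif20a, Kif2c, Kif4 and Kif22 were not tested, with at most 13 counts in a library. Of these, Kif22, a chromosome-binding motor, had 5, 5 and 9 counts in control and 12, 13 and 10 in OE-labelled libraries, and with no count filter its log2 fold change was 0.65 (SE 0.45, adjusted p = 0.392 in edgeR). The summed level of the 7 kinesins was 100.5, 84 and 81.1 CPM in the control group and 65.6, 66.5 and 71 CPM in the OE-labelled group, with no overlap. This sum includes the called genes Kif11 and Kif20b, and it does not describe a fall of every motor. Mean CPM fell for Kif20b (24.1 to 13.3), Kif11 (7.42 to 2.69), Kif23 (47.7 to 39.2) and Kif4 (1.70 to 1.60). It was higher in OE-labelled libraries for the untested Kif20a (3.09 to 3.77), Kif2c (1.55 to 2.46) and Kif22 (2.93 to 4.73).

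**Figure D4:**
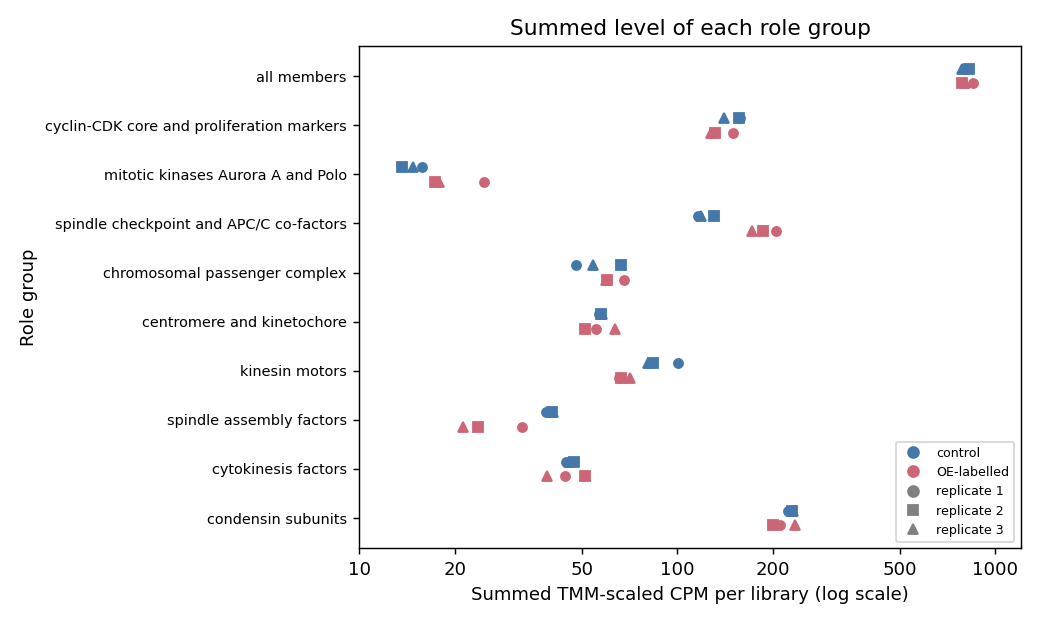
Summed TMM-scaled CPM (x axis, log scale) of all 45 mitosis genes and of each role group (y axis) in each control (blue) and OE-labelled (red) library, with marker shape for the replicate number. The sums of all 45 overlap, the checkpoint group (of which Bub3 is the largest part) and the Aurora A and Polo pair are higher, and the kinesin and spindle assembly groups are lower in every OE-labelled library. In the pair the rise is that of Plk1, which was not called, while untested Aurka had means of 3.71 (control) and 3.36 CPM (OE-labelled). The kinesin sums include Kif11 and Kif20b, which were called lower.

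The 3 spindle assembly factors had negative estimates, and 0 passed the threshold. Tpx2, which activates Aurora A on spindle microtubules, was at 13.4, 15.9 and 14.7 CPM in the control group and 11.3, 10.2 and 8.03 CPM in the OE-labelled group, without overlap (log2 fold change -0.57 with an SE of 0.23, adjusted p = 0.0847 in edgeR). Nusap1, a microtubule bundling protein, was at 15.7, 15.9 and 12 CPM and at 13.8, 7.08 and 8.46 CPM (log2 fold change -0.57 with an SE of 0.28, adjusted p = 0.142 in edgeR). Hmmr, a spindle pole protein, was at 9.68, 8.44 and 13.8 CPM and at 7.29, 6.29 and 4.65 CPM, without overlap (log2 fold change -0.80 with an SE of 0.30, adjusted p = 0.0613 in edgeR). In each of these genes OE-labelled replicate 1 was the highest of its group. Without that library the edgeR adjusted p was 0.0405 for Tpx2, 0.0128 for Nusap1 and 0.0302 for Hmmr. In the other 18 of 19 alternatives Tpx2 and Nusap1 did not pass, with adjusted p up to 0.235 for Tpx2 (DESeq2) and 0.418 for Nusap1 (edgeR with the GC offset). Hmmr did not pass in 14 of 19, among them DESeq2 (0.169) and, in edgeR, the GC offset (0.189) and the fit without control replicate 3 (0.268). Hmmr also passed with no count filter (0.0481), with at least 10 counts in every library (0.043), without mitochondrial genes and the gene CT010467.1 (0.0478) and with protein-coding genes only (0.0464).

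Of the 4 cytokinesis factors, Anln was lower and the others did not pass. Anln (anillin; minus strand of chromosome 9, 22332012 to 22389188), the scaffold of the contractile ring, had 21, 16 and 26 counts in control and 6, 10 and 13 in OE-labelled libraries. These were 9.68, 7.51 and 12 CPM against 2.43, 3.93 and 5.5 CPM, and the groups did not overlap. Anln reached the filter level in 3 control libraries and 1 OE-labelled library, so it was tested through the group where it was high. Anln fell by 1.29 on the log2 scale (SE 0.34, adjusted p = 0.0144 in edgeR). Without control replicate 1 or 3 the adjusted p was 0.051 and 0.0819.

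Racgap1, which forms centralspindlin with Kif23, was at 9.68, 12.7 and 10.6 CPM in the control group and 19, 16.5 and 13.1 CPM in the OE-labelled group. The groups did not overlap, yet the log2 fold change of 0.56 (SE 0.24) did not pass (edgeR adjusted p = 0.0904). Without OE-labelled replicate 3, the lowest of its group, the edgeR adjusted p was 0.0434. Racgap1 did not pass in the other 18 of 19 alternatives, among them DESeq2 (0.31) and edgeR without OE-labelled replicate 1 (0.27). Prc1, which bundles antiparallel microtubules of the central spindle, was at 16.9 to 18.4 and 13.1 to 24 CPM (log2 fold change 0.06 with an SE of 0.24, adjusted p = 0.866 in edgeR). Ect2, the exchange factor that activates RhoA at the division plane, was at 5.99 to 10.3 and 5.27 to 7.19 CPM (log2 fold change -0.28 with an SE of 0.31, adjusted p = 0.532 in edgeR).

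Condensin subunits gave no call among the 4 tested. Smc4, an ATPase of the complex, was at 159, 168.9 and 165.4 CPM in the control group and 144.6, 119.5 and 169.5 CPM in the OE-labelled group (log2 fold change -0.19 with an SE of 0.13, adjusted p = 0.301 in edgeR). Its partner ATPase Smc2 was at 29, 32.8 and 35.5 CPM in the control group and 38.5, 38.5 and 38.9 CPM in the OE-labelled group. The groups of Smc2 did not overlap, but the log2 fold change of 0.25 (SE 0.15) did not pass (edgeR adjusted p = 0.226). With the GC offset it was 0.51 (edgeR adjusted p = 0.0301; 0.0355 with the replicate block and GC offset). The non-SMC subunits Ncapd2 and Ncaph overlapped between groups, at 19.2 to 22.6 and 14.4 to 27.9 CPM and at 4.61 to 9.68 and 5.27 to 9.83 CPM. Ncapg, also a non-SMC subunit, was not tested and had 7, 4 and 6 counts in control and 8, 11 and 9 in OE-labelled libraries.

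With earlier results of these data known, mitosis genes outside the 45 were listed from general knowledge. They formed 7 further groups of 159 genes, of which 113 were tested. Of these, 12 were higher and 18 lower, beside 16.5% and 12.7% of all tested genes (10.6% and 15.9% here). In the cohesin and separase axis, 5 of 14 were lower (35.7%) and 0 higher. Wapl, which releases cohesin from chromosomes, was at 195.9, 184.4 and 188 CPM in the control group and 109, 117.2 and 85.8 CPM in the OE-labelled group (log2 fold change -0.86 with an SE of 0.13, adjusted p = 0.000532 in edgeR). The cohesin ATPase Smc3 was at 279.7, 282 and 287.5 CPM and at 205.4, 174.6 and 158.5 CPM (log2 fold change -0.66 with an SE of 0.12, adjusted p = 0.00139 in edgeR). In both genes every OE-labelled library lay below every control library, and both passed in all 19 alternatives.

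Among APC/C subunits and co-factors, 4 of 15 were higher (26.7%) and 1 was lower (6.67%), against 16.5% and 12.7% of all tested genes. Fzr1 (CDH1), the co-activator of late mitosis and G1, was at 37.8, 32.4 and 36.9 CPM in the control group and 70.9, 59.8 and 52.4 CPM in the OE-labelled group (log2 fold change 0.77 with an SE of 0.15, adjusted p = 0.00297 in edgeR). The small subunit Anapc13 rose by 0.68 on the log2 scale (SE 0.14, adjusted p = 0.00338 in edgeR). Both passed in all 19 alternatives. The scaffold subunit Anapc1 fell by 0.44 (SE 0.14, adjusted p = 0.0325 in edgeR), a call that 9 of 19 alternatives lost. Among these were the length offset (-0.13, adjusted p = 0.567) and the fits without control replicate 1 (0.081), 2 (0.0688) or 3 (0.147) or without OE-labelled replicate 2 (0.0706) or 3 (0.0601).

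Regulators of cell cycle transcription, among them subunits of NF-Y and MuvB and E2F factors, included 3 higher and 3 lower genes among 11 tested (27.3% each way, against 16.5% and 12.7% of all tested genes). Nfyc, a subunit of the CCAAT-binding factor NF-Y, was at 8.3, 7.04 and 10.1 CPM in the control group and 28.8, 21.6 and 27.5 CPM in the OE-labelled group (log2 fold change 1.60 with an SE of 0.23, adjusted p = 0.000492 in edgeR). Its partner subunit Nfya moved the other way, from 16.6, 17.4 and 18 CPM to 6.48, 11 and 10.6 CPM (log2 fold change -0.88 with an SE of 0.24, adjusted p = 0.0174 in edgeR). The Nfya call was lost without control replicate 2 (adjusted p = 0.0587) or 3 (0.0677). Lin37, a MuvB subunit, was at 5.07, 2.81 and 4.15 CPM and at 12.2, 9.83 and 15.2 CPM (log2 fold change 1.61 with an SE of 0.32, adjusted p = 0.00284 in edgeR). E2f3, an activator of S phase genes, fell by 0.95 (SE 0.20, adjusted p = 0.0043 in edgeR). Lin37 reached the filter level in 1 control library and in all 3 OE-labelled libraries, so it was tested through the group where it was high. Nfyc, Lin37 and E2f3 kept their calls in every alternative run.

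Other spindle and centrosome genes had 1 higher and 5 lower among 25 tested, in all 24%, near the 29.2% of all tested genes. Ckap5, a microtubule polymerase, was at 44.7, 44.6 and 48.4 CPM in the control group and 21.5, 23.2 and 21.1 CPM in the OE-labelled group, so it fell by 1.06 on the log2 scale (SE 0.15, adjusted p = 0.000476 in edgeR). Numa1, which tethers microtubules at spindle poles, fell by 0.59 (SE 0.11, adjusted p = 0.00248 in edgeR), and Haus4, an augmin subunit, rose by 1.48 (SE 0.34, adjusted p = 0.00675 in edgeR). Haus4 reached the filter level in 2 control and 3 OE-labelled libraries. The calls of these 3 genes held in every alternative run.

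In mitotic entry, exit and cytokinesis, 2 of 22 were higher and 3 lower, in all 22.7%, below the 29.2% of all tested genes. The phosphatase Cdc14a fell by 1.28 (SE 0.23, adjusted p = 0.00167 in edgeR) and kept its call in all 19 alternatives. Cdc25b, which activates Cdk1, rose by 0.61 (SE 0.16, adjusted p = 0.0157 in edgeR), a call lost with DESeq2 (0.0967), the GC offset (0.0824) and without control replicate 1 (0.0722) or 3 (0.0704). Rhoa, the GTPase of the contractile ring, was at 205.1, 204.1 and 195.8 CPM in the control group and 314, 209.6 and 361.1 CPM in the OE-labelled group. OE-labelled replicate 2 lay just above the control range. Rhoa rose by 0.55 (SE 0.16, adjusted p = 0.0239 in edgeR), a call lost without control replicate 1 (0.0815), 2 (0.0828) or 3 (0.0985) or OE-labelled replicate 3 (0.0557). Arhgap11a fell by 0.70 (SE 0.24, adjusted p = 0.0425 in edgeR), and 9 of 19 alternatives lost the call. Among these were the fits without control replicate 2 (0.181) or 3 (0.142) and without OE-labelled replicate 2 (0.12).

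Of 3 condensin II subunits, Ncaph2 was higher (log2 fold change 0.61 with an SE of 0.15, adjusted p = 0.0105 in edgeR), which did not pass with the GC offset (0.0745) or without control replicate 1 (0.0559) or 3 (0.0656) or OE-labelled replicate 2 (0.0685). The other kinetochore genes had 1 higher and 1 lower of 23, in all 8.7% against the same 29.2%. Mad2l1bp, which helps to silence the checkpoint, rose by 0.77 (SE 0.26, adjusted p = 0.038 in edgeR; 0.0532 with the replicate block). In 12 of 19 alternatives Mad2l1bp missed the threshold, among them DESeq2 (0.155), the GC offset (0.09), the length offset (0.122) and protein-coding genes only (0.0523). It also did not pass without control replicate 1 (0.0547), 2 (0.0876) or 3 (0.166) or OE-labelled replicate 2 (0.103) or 3 (0.0768). Cenpq fell by 1.13 (SE 0.33, adjusted p = 0.0233 in edgeR), a call lost with DESeq2 (0.0837), the GC offset (0.0546) and without control replicate 2 (0.116) or 3 (0.0591) or OE-labelled replicate 2 (0.0825). Cenpq reached the filter level in 3 control libraries and 1 OE-labelled library, so it was tested through the group where it was high. S phase genes, listed for reference, had 3 higher (16.7%, near the 16.5% of all tested genes) and 0 lower among 18 tested, with summed levels of 355.1 ± 9.51 CPM in the control group and 396.8 ± 8.87 CPM in the group labelled OE (n = 3 each, ± SD).

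The spread between libraries was larger in the OE-labelled group. The median coefficient of variation of the 31 tested mitosis genes was 13.1% over the control group and 21.2% over the OE-labelled group, against 11.5% and 16.3% over the 9253 tested genes in their range of average expression. It was larger in the OE-labelled group for 20 of the 31 genes (64.5%), beside 65% of the genes in that range. Sequence composition moved with the fold changes. Calls that changed under the GC and length offsets are given with the genes, and whether composition caused any difference was not tested. Spearman's rho of log2 fold change with transcript GC content was 0.45 across the 31 mitosis genes and 0.37 across 10679 tested genes, and with exonic length it was -0.34 and -0.30. These are descriptions across genes of the same 6 libraries, and genes are not independent replicates.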

How the data were processed

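Libraries were made from total RNA with a 3′ forward kit, per the labels' protocols, which reads transcript ends rather than whole transcripts. The submitters' processing notes list STAR, HTSeq and the builds mm10 and GRCm38. Gene-level estimated counts without normalization were deposited by the authors. Of these, 2843 values were fractional and were rounded before testing, as had been planned for values that are not whole. Control and OE-labelled libraries were compared in 1 edgeR 4.0.16 quasi-likelihood fit in R 4.3.3 (filterByExpr, TMM, Benjamini-Hochberg over 10687 genes, no covariates). CPM is scaled by the same factors, and SE was derived from the estimate and its F statistic. The members and lists were chosen with earlier results of these data known. All genes past the threshold and 7 fixed genes were given full values, and outside the 45 at most 2 in each direction per list, by smallest p. Positions, overlaps and GC content came from GENCODE M21 (GRCm38), matched by gene identifier. Alternatives were DESeq2 1.42.0 and its size factors, library totals, limma-voom (limma 3.58.1), other filters on counts, thinning to equal depth, leaving out mitochondrial and ribosomal RNA genes, protein-coding genes only, a GC offset (loess, span 0.5), the replicate block and leaving out each library. An exonic length offset was added after seeing the data. Depth was 2180116 to 2519917 counts. Since no molecular identifiers are stated, floors cover counting error only. On simulated counts (10516 genes, 193 tested of 200 changed by 1 log2 unit), the fit recovered 79.8% of the changed genes, and 6.67% of its calls were unchanged genes. The simulation changed fewer genes than the 3118 called here and held no batch or GC difference. Its rates were not measured for smaller changes and do not carry over to these data.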

Additional observations from a re-analysis of the deposited data

How the results depend on the processing

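Across all tested genes 3118 passed. An adjusted p below 0.01 left 1578, with 1 mitosis gene higher and 2 lower, and leaving out single libraries gave 1748 to 3532. The count of mitosis genes higher (4) became 1 with DESeq2 and 2 with the exonic length offset, with a range of 1 to 4 over fits that each lacked a library. The count lower (4) became 2 with the GC offset and ran from 1 to 7. Of all tested genes, 29.2% passed in the main fit, 19.6% with DESeq2, 23% with the GC offset and 23.9% with the length offset. Over the fits that each lacked a library this share was 15.9% to 32.6%. The scaling moved the share of all calls that were higher from 56.6% (TMM) to 49.9% with DESeq2 size factors and 63.8% under library totals, and the median of all genes from 0.041 to -0.003 and 0.089. The median log2 fold change of tested mitosis genes (-0.038) was -0.083 with DESeq2 size factors, 0.011 with library totals, -0.082 with DESeq2, -0.073 with limma-voom, -0.097 without mitochondrial genes and CT010467.1, -0.100 with protein-coding genes only, 0.004 at equal depth and 0.012 with the length offset. Fits that each lacked a library gave -0.065 to 0.047 for the mitosis genes and 0.001 to 0.047 for all tested genes. The median of all tested genes was -0.003 with DESeq2, 0.026 with limma-voom and -0.019 without mitochondrial genes and CT010467.1. It was -0.018 with protein-coding genes only, 0.041 at equal depth and 0.033 with the length offset. The cause of these shifts was not tested.

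Of 584 values of single mitosis genes under alternatives, direction and call were kept in 515, 32 fell short of the threshold, 10 newly passed and 27 changed sign. The sign changes were in 11 genes, none of them called. Ccnb1 became -0.078 with limma-voom, Ccnb2 0.011 with library totals and 0.060 at equal depth, and Ube2c 0.020 with library totals. With the GC offset Cdc20 became -0.045, Cenpe 0.142 and Smc4 0.056, and with the replicate block and GC offset -0.061, 0.145 and 0.047. With the length offset Cdc20 became -0.030, Cenpe 0.088, Cenpf 0.035, Mki67 0.031 and Ncapd2 0.005. Leaving out single libraries gave -0.553 to 0.458 for Ccnb1, -0.291 to 0.051 for Ccnb2, -0.065 to 0.396 for Cdc20, -0.356 to 0.111 for Mki67, -0.408 to 0.129 for Ncapd2, -0.033 to 0.586 for Ncaph, -0.217 to 0.251 for Prc1 and -0.124 to 0.065 for Ube2c.

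Equal replicate numbers do not say that libraries share a culture, and deviations of equally numbered libraries correlated at 0.097, 0.018 and 0.069 (-0.031 for unequal numbers). With the replicate block 3112 genes passed, and the same counts of 4 higher and 4 lower mitosis genes were called, at a median of -0.047. The count filter left out 14 of the 45, none above 14 counts in a library. With no filter 0 of these 14 passed (adjusted p 0.16 to 0.956 in edgeR), and 1, Ccna2, had an unadjusted p below 0.05 (0.0407).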
